A study of Mus musculus with 15 samples.

Results

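The genes described here are *Tgfb1*, *Tgfbr1*, *Tgfbr2*, *Smad2*, *Smad3*, *Smad4*, *Smad7*, *Ski*, *Skil* and *Tgfbi*, which cover the TGF-beta ligand, its receptors, its Smads, 2 co-repressors and a target gene. They were chosen by symbol, with earlier results of these data known, and are 10 of the 38924 genes in the deposited tables. All 10 were among the 14967 genes left by the filter on low counts, and each had at least 261 counts in every library.

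RNA was sequenced from brain myeloid cells of male C57BL/6J wild type mice killed at 12 months of age. Mice ate either chow, the control diet (CD), or a western diet (WD) that began in early adulthood. CD11b+ cells were parted by FACS into cells with high and cells with low CD45, the leukocyte surface protein encoded by *Ptprc*. The 15 libraries fall into 4 CD CD45hi, 4 CD CD45lo, 3 WD CD45hi and 4 WD CD45lo libraries. Both gates hold mixtures defined by surface protein alone, and the labels give no animal for a library, so p-values measure the spread between these libraries.

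TGF-beta is secreted in a latent form, is released by integrins and proteases, and binds a type II receptor that then activates a type I receptor. The type I receptor phosphorylates Smad2 and Smad3, which join Smad4 and enter the nucleus, while Smad7 blocks the receptor and Ski and SnoN (encoded by *Skil*) repress Smad target genes. In the brain, microglia depend on this pathway for their adult gene expression profile, and the type I receptor transcript is abundant in them.

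Libraries held 11951412 to 17912272 expected counts, and a floor of 3 counts lay at 0.156 to 0.282 cpm (counts scaled to a common library size, TMM-normalized). *Ptprc* was higher in CD45hi cells on both diets, with log2 fold changes of 1.15 and 1.56 (CD and WD), and *Itgam*, which encodes CD11b, differed by -0.24 and -0.18. The summed level of 10 microglial markers, among them *P2ry12* and *Tmem119*, was 7872 to 9798 cpm in the CD45hi and 16790 to 21140 cpm in the CD45lo libraries, and all 10 were lower in CD45hi cells by the test for any change on both diets. The summed level of 6 border macrophage markers was 765 to 2715 cpm in CD45hi and 65.6 to 242 cpm in CD45lo libraries, with all 6 called higher. Beyond 1.5-fold, 5 of 7 neutrophil markers were higher on each diet, 3 and 2 of 7 monocyte markers, 1 of 6 dendritic cell markers on each diet, and 1 and 2 of the 5 lymphocyte markers tested (edgeR glmTreat). These 5 had at most 0.467 cpm in any CD45lo library and passed the filter on low counts through CD45hi libraries alone. In a principal component analysis, CD CD45hi replicate 4 and WD CD45hi replicate 1 stood apart from the other CD45hi libraries, at 93 and -134.7 on the second component against 6.1 to 21.5 for the other 5. Results that rest on these 2 libraries are given with and without them.

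The first question was how the 2 gates differ. In CD-fed mice, *Tgfbi* was 5.02-fold higher and *Tgfbr1* 2.12-fold lower in CD45hi cells, and these were the members called. In WD-fed mice, *Tgfbi* was 5.11-fold higher, and *Tgfbr1*, *Smad7* and *Ski* were 1.80-fold, 2.25-fold and 1.63-fold lower. The other members did not pass the test on either diet. The median log2 fold change of the 10 members was -0.51 in CD-fed and -0.19 in WD-fed mice, against 0.04 and 0 over all genes.

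By the test for a change beyond 1.5-fold (edgeR glmTreat, FDR under 0.05 over 14967 genes), 2 of 10 members were called in CD-fed mice, where 3.98% of all genes were. In WD-fed mice 1 of 10 was called against 5.18%. By the test for any change (edgeR glmQLFTest, FDR under 0.05), 2 of 10 were called in CD-fed mice against 8.03%, and 4 of 10 in WD-fed mice against 9.12%. With 10 members, these counts of calls differ from the background by a few genes. Libraries of the gates did not overlap for 4 members in CD-fed mice (1 higher and 3 lower in CD45hi cells) and for 6 in WD-fed mice (2 higher and 4 lower). The share of all genes without overlap was not computed, so these counts have no background beside them. The summed microglial markers moved with the 3 members called lower, and border macrophage, monocyte and neutrophil markers moved with *Tgfbi*, and the part of these cells in the differences was not tested. In these bulk samples, fewer cells of a type and less RNA per cell cannot be told apart.

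**Figure D1:**
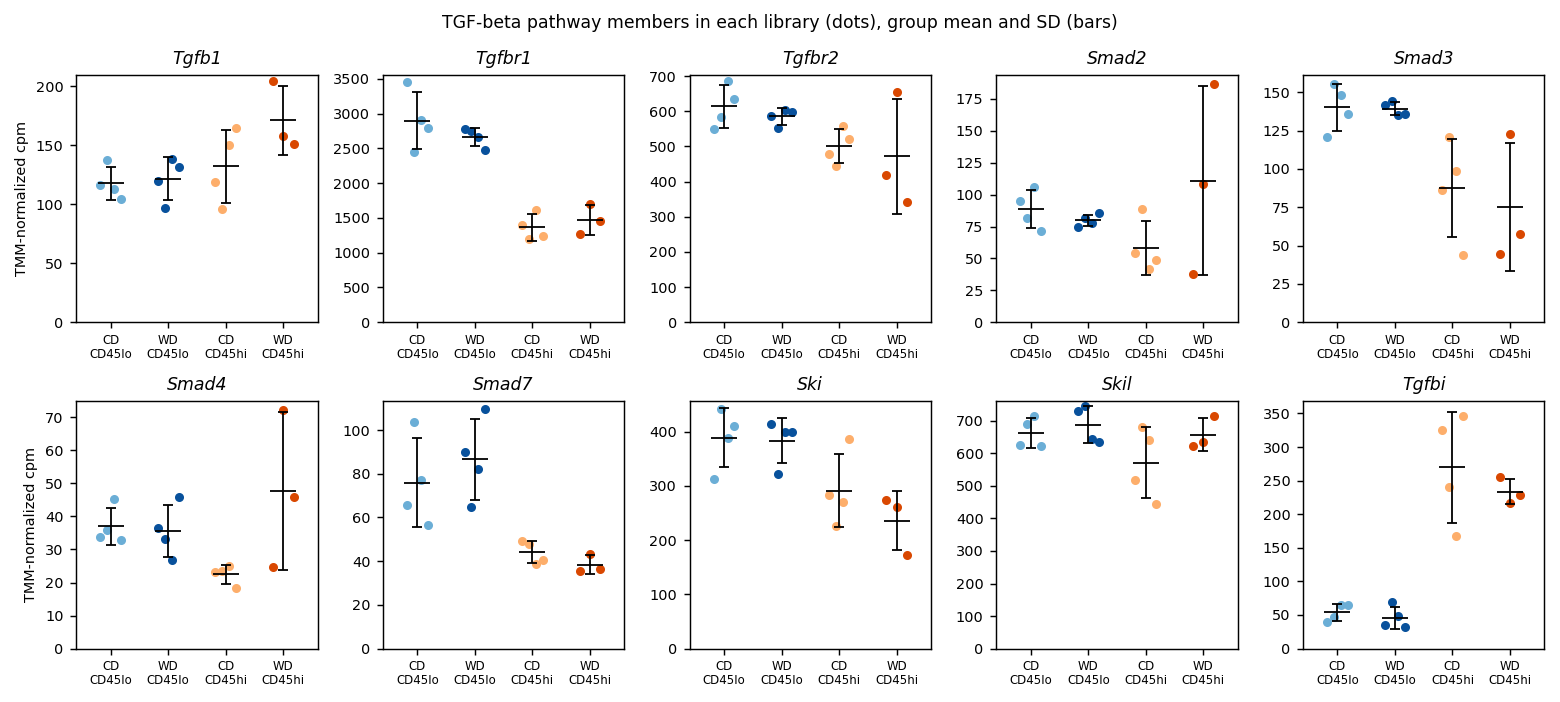
Normalized level of each of the 10 members (y axes, cpm after TMM normalization, each from 0) in the 15 libraries (dots), by diet and gate (x axes), with the group mean and SD as bars. *Tgfbr1* sits at 1196 to 1697 cpm in all CD45hi libraries and at 2454 to 3447 cpm in all CD45lo libraries, *Tgfbi* shows the opposite order, and *Smad2* and *Smad4* are spread widely in WD CD45hi libraries.

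*Tgfbr1*, the type I receptor that phosphorylates Smad2 and Smad3, lies on chromosome 4 of mm10 (47353222 to 47414931, plus strand). It had 1396, 1196, 1620 and 1246 cpm in the 4 CD CD45hi libraries and 3447, 2454, 2901 and 2785 cpm in the CD CD45lo libraries. Every CD45hi library was below every CD45lo library. With means of 1365 ± 191 and 2897 ± 413 cpm (SD, n = 4 each), the difference on the log2 scale was -1.09 (SE 0.125), which passed both tests (edgeR FDR = 2.3e-05 for any change and 0.00444 beyond 1.5-fold). In WD-fed mice it had 1267, 1697 and 1462 cpm in CD45hi cells and 2774, 2745, 2656 and 2476 cpm in CD45lo cells, again without overlap. With means of 1475 ± 215 (SD, n = 3) and 2663 ± 134 cpm (SD, n = 4), the log2 difference there was -0.85 (SE 0.137), called for any change (edgeR FDR = 0.000505) but not beyond 1.5-fold (edgeR FDR = 0.108). Without WD CD45hi replicate 2, the highest of its group, the 1.5-fold test passed as well (log2 fold change -0.96, edgeR FDR = 0.0436). The diets' log2 fold changes differed by 0.23 (SE 0.182), which did not pass (edgeR interaction FDR = 0.724).

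*Tgfbr1* and the summed microglial markers were both lower in CD45hi cells. For every 1000 cpm of these markers, *Tgfbr1* had 136 to 167 cpm in CD CD45hi and 119 to 172 cpm in CD CD45lo libraries, and 133 to 189 against 134 to 147 cpm in WD-fed mice. These ratios overlapped between the gates on both diets. In WD-fed mice the overlap rests on WD CD45hi replicate 1, which stood apart and had the lowest ratio. Without it, the WD CD45hi ratios were 165 and 189 cpm, above every WD CD45lo library. *Tgfbr1* is the only member with fractional expected counts, in all 15 libraries, which marks reads that RSEM shared between it and other genes.

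The RefSeq promoters of *Tgfbr1* and *Tgfbi* are shown because these are the members called in opposite directions on both diets. They were taken from the strand of the gene, 5′ to 3′, up to the start of the annotated gene on GRCm38.p6, at chr4:47352972-47353221 (plus strand) and chr13:56609336-56609522 (plus strand). Capitals mark matches, on either strand, to GGGCGG (a GC box) or to CAGAC (the core letters bound by Smad proteins). No match to one overlaps a match to the other.
Tgfbr1: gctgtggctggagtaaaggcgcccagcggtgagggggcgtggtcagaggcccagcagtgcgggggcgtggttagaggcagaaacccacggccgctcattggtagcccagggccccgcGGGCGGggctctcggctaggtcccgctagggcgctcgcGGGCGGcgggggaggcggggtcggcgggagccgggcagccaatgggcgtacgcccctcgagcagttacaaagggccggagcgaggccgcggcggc
Tgfbi: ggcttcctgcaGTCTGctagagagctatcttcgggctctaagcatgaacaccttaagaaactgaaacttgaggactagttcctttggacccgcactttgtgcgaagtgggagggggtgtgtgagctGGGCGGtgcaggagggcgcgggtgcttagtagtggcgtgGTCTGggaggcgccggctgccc

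The *Tgfbr1* stretch holds 2 GC boxes, 133 and 95 bases before the start, and no CAGAC, and 74.8% of its bases are G or C. The *Tgfbi* stretch holds 1 GC box, 124 bases before the RefSeq start, and 2 matches to CAGAC, 239 and 85 bases before it, and is 59.4% G or C. Over all 32851 RefSeq promoters, the 250 bases before the start hold GGGCGG in 32.7% and CAGAC in 42.2%, so both are common letters. RefSeq promoters were matched for 6 of the 10 members. The second listed start of *Tgfbr1*, inside the gene, has 1 CAGAC and no GC box, and *Tgfb1* and *Ski* each have 5 GC boxes and no CAGAC.

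*Tgfbr2*, the type II receptor that binds the ligand, is on chromosome 9 (116084293 to 116175360, minus strand). It had 480, 446, 558 and 522 cpm in CD CD45hi and 549, 584, 685 and 636 cpm in CD CD45lo libraries, where 1 CD45hi library lay above the lowest CD45lo library. In WD-fed mice it had 419, 655 and 341 cpm in CD45hi and 587, 552, 604 and 597 cpm in CD45lo cells. WD CD45hi replicate 2 was above all CD45lo libraries there and the other 2 below all of them. The log2 fold changes of -0.29 (SE 0.163) and -0.31 (SE 0.177) did not pass (edgeR FDR = 0.353 and 0.302). Without WD CD45hi replicate 2 the difference in WD-fed mice was -0.62 (SE 0.148) and passed (edgeR FDR = 0.014), so this library decides the call.

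*Tgfb1*, which encodes the ligand, is on chromosome 7 (25687002 to 25705077, plus strand). It had 119, 95.8, 150.1 and 165 cpm in CD CD45hi and 117, 137, 113 and 104 cpm in CD CD45lo libraries, which overlapped (log2 fold change 0.17, SE 0.195, edgeR FDR = 0.723). In WD-fed mice the CD45hi libraries had 205, 158 and 151 cpm and the CD45lo libraries 120.1, 96.5, 138 and 132 cpm. All 3 CD45hi libraries were higher there, but the log2 fold change of 0.49 (SE 0.209) did not pass (edgeR FDR = 0.157). The direction depends on the scale. As TPM, which is scaled to the whole library, its means in CD45hi and CD45lo cells were 95.8 and 117 in CD-fed mice and 113 and 120 in WD-fed mice, log2 ratios of -0.28 and -0.09. The median log2 TPM ratio of all genes was -0.36 and -0.46, and relative to that median *Tgfb1* stood at 0.07 and 0.37.

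**Figure D2:**
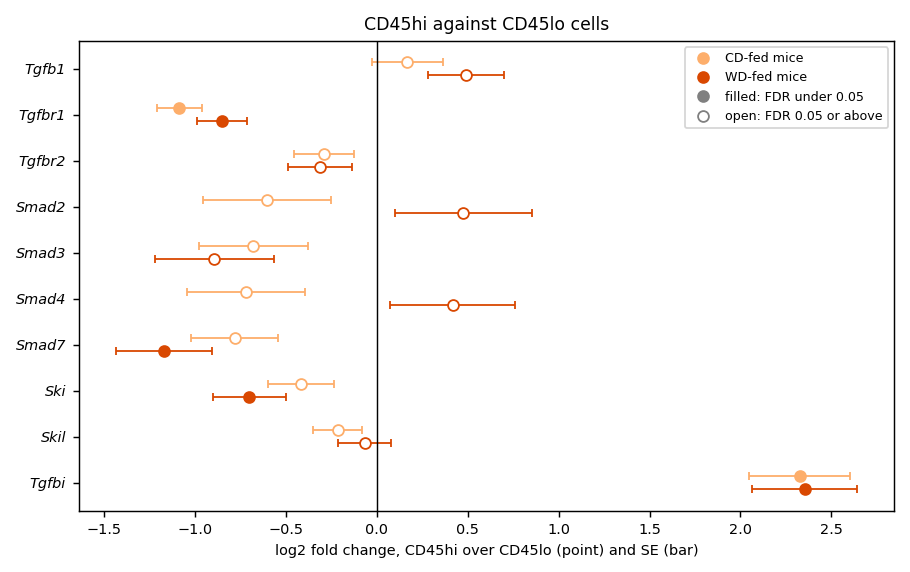
Fitted log2 fold change of CD45hi over CD45lo cells (x axis) with its SE (bar) for each member in CD-fed (light) and WD-fed mice (dark), filled where the test for any change passed an FDR of 0.05. *Tgfbi* lies at 2.33 and 2.35, *Tgfbr1* at -1.09 and -0.85, and *Smad2* and *Smad4* have opposite signs on the 2 diets with no call on either.

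*Smad2* and *Smad3* encode the Smads that the receptor phosphorylates. *Smad3* (chromosome 9, 63646767 to 63757994, minus strand) had 86.4, 121, 98.9 and 44.2 cpm in CD CD45hi and 121, 155, 148 and 136 cpm in CD CD45lo libraries. On WD it had 44.6, 123 and 57.7 cpm in CD45hi and 142, 144, 135 and 136 cpm in CD45lo cells. The CD45lo libraries of WD-fed mice were within 10 cpm of each other and above all 3 CD45hi libraries. The log2 fold changes were -0.68 (SE 0.298, edgeR FDR = 0.207) and -0.89 (SE 0.328, edgeR FDR = 0.101), neither a call. Without WD CD45hi replicate 2, the highest of its group, that in WD-fed mice was -1.45 (SE 0.311) and passed both tests (edgeR FDR = 0.00714 for any change and 0.0359 beyond 1.5-fold).

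*Smad2* (chromosome 18, 76241580 to 76310963, plus strand) had 54.3, 89.1, 41.4 and 48.5 cpm in CD CD45hi and 95.2, 81.7, 106 and 71.6 cpm in CD CD45lo libraries (log2 fold change -0.61, SE 0.352, edgeR FDR = 0.378). In WD-fed mice the 3 CD45hi libraries had 37.9, 109 and 187 cpm and the CD45lo libraries 74.8, 81.3, 78.1 and 85.2 cpm. The 3 CD45hi libraries thus lay on both sides of the CD45lo libraries (log2 fold change 0.48, SE 0.376, edgeR FDR = 0.486).

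*Smad4*, the partner common to the Smads (chromosome 18, 73639009 to 73703780, minus strand), had 23.1, 23.5, 25.0 and 18.3 cpm in CD CD45hi and 33.8, 36.0, 45.3 and 32.9 cpm in CD CD45lo libraries. These did not overlap, but the log2 fold change of -0.72 (SE 0.323) did not pass (edgeR FDR = 0.221). On WD it had 24.6, 72.3 and 45.9 cpm in CD45hi and 36.6, 33.3, 26.9 and 45.9 cpm in CD45lo cells, with overlap (log2 fold change 0.42, SE 0.345, edgeR FDR = 0.511). A processed pseudogene lies within *Smad4* on the opposite strand. The library kit does not mark strand, so reads of the pair cannot be told apart by strand.

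*Smad7*, which encodes the inhibitory Smad and is itself induced by the pathway, is on chromosome 18 (75367529 to 75395935, plus strand). It had 49.3, 47.9, 38.9 and 40.6 cpm in CD CD45hi and 65.7, 104, 77.3 and 56.7 cpm in CD CD45lo libraries. On WD it had 35.5, 43.5 and 36.4 cpm in CD45hi and 90.0, 64.6, 82.2 and 109.6 cpm in CD45lo cells. The gates did not overlap on either diet, and the log2 fold change passed in WD-fed mice (-1.17, SE 0.265, edgeR FDR = 0.00851) and not in CD-fed mice (-0.78, SE 0.239, edgeR FDR = 0.0544). The difference between the diets, -0.39 (SE 0.351), did not pass (edgeR interaction FDR = 0.767). In CD-fed mice *Smad7* passed with DESeq2 (FDR = 0.0137), with the edgeR 4 form of the fit (FDR = 0.0492) and with a stricter filter on low counts (FDR = 0.0438). In WD-fed mice its call was lost with the numbers in the file names as a replicate block (FDR = 0.0822).

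**Figure D3:**
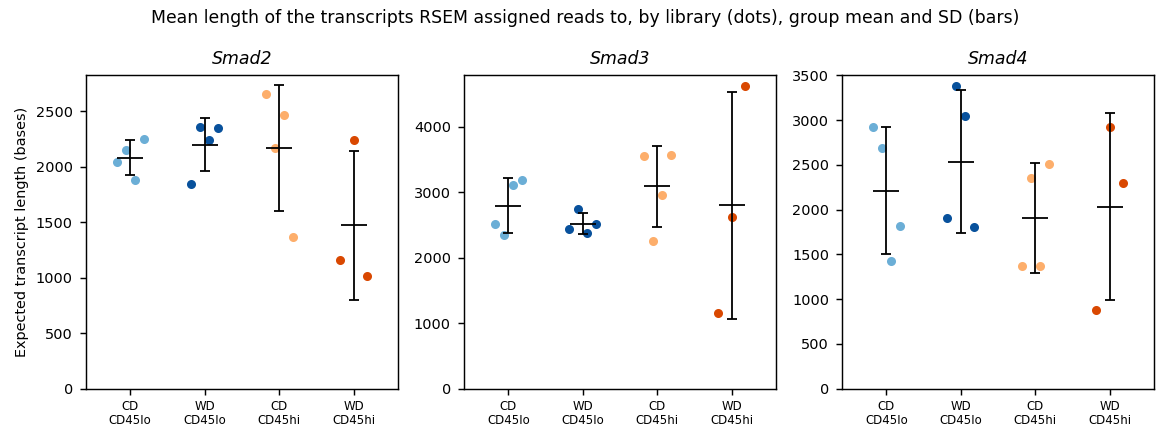
Mean length in bases of the transcripts to which RSEM assigned the reads of *Smad2*, *Smad3* and *Smad4* (y axes, from 0) in each library (dots), with group mean and SD as bars. Lengths ran from 1014 to 2662 bases for *Smad2*, 1161 to 4623 for *Smad3* and 878 to 3384 for *Smad4*, and both ends of the *Smad3* range were WD CD45hi libraries.

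These 3 Smads differ from the other members in how RSEM divided their reads between transcripts. The deposited tables list 7 transcripts for *Smad2*, 5 for *Smad3* and 6 for *Smad4*. The expected length, a mean over transcripts weighted by their estimated share, varied 2.63-fold, 3.98-fold and 3.86-fold between libraries, while it varied at most 1.10-fold for the other 7 members. The widest spread was in WD CD45hi cells. *Smad2* there had lengths of 1160, 2243 and 1014 bases, and its TPM, which divides by length, were 49.7, 66.0 and 294. Whether transcript use or the estimate of the split differed between libraries was not tested. Levels per length of *Smad2*, *Smad3* and *Smad4* depend on that split and should be read with care.

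*Ski* and *Skil* encode co-repressors that bind Smads in the nucleus. *Ski* (chromosome 4, 155154075 to 155222592, minus strand) had 283, 226, 269.5 and 386 cpm in CD CD45hi and 313, 442, 389 and 411 cpm in CD CD45lo libraries, which overlapped through CD CD45hi replicate 4 (log2 fold change -0.42, SE 0.184, edgeR FDR = 0.212). In WD-fed mice it had 274, 261 and 173 cpm in CD45hi and 414, 322, 399.6 and 399 cpm in CD45lo cells, without overlap. The log2 fold change of -0.70 (SE 0.202) passed (edgeR FDR = 0.0368). This call was lost without WD CD45hi replicate 3 (edgeR FDR = 0.119) and without WD CD45lo replicate 1, 3 or 4 (edgeR FDR = 0.0924, 0.0835 and 0.0796). Without the 2 CD45hi libraries that stood apart, *Ski* also passed in CD-fed mice (log2 fold change -0.58, edgeR FDR = 0.0453).

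*Skil* (chromosome 3, 31095058 to 31122577, plus strand) had the smallest spread of the 10 members over the 15 libraries, an SD of 0.195 in log2 cpm. It ran from 444 to 681 cpm in CD CD45hi, 624 to 714 in CD CD45lo, 623 to 716 in WD CD45hi and 635 to 747 cpm in WD CD45lo libraries. The gates overlapped on both diets, with log2 fold changes of -0.22 (SE 0.135, edgeR FDR = 0.425) and -0.07 (SE 0.146, edgeR FDR = 0.843).

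*Tgfbi* encodes a secreted extracellular matrix protein, named for its induction by TGF-beta in other cells, and is on chromosome 13 (56609523 to 56639562, plus strand). It had 326, 240.2, 168 and 347 cpm in CD CD45hi and 39.1, 47.5, 64.4 and 64.5 cpm in CD CD45lo libraries. In WD-fed mice it had 255, 217 and 229 cpm in CD45hi and 34.8, 68.6, 47.7 and 32.0 cpm in CD45lo cells. The lowest CD45hi library was thus above the highest CD45lo library on each diet. On CD the means were 270.1 ± 82.5 and 53.9 ± 12.7 cpm (SD, n = 4 each) and the difference on the log2 scale was 2.33 (SE 0.278, edgeR FDR = 0.000173 beyond 1.5-fold). On WD they were 234 ± 19.2 (SD, n = 3) and 45.8 ± 16.7 cpm (SD, n = 4) and the difference was 2.35 (SE 0.29, edgeR FDR = 0.000242 beyond 1.5-fold). The diets' differences were 0.03 apart (SE 0.389, edgeR interaction FDR = 1). Beside *Tgfbi*, the summed level of 6 border macrophage markers was 765 to 2715 cpm in CD45hi and 65.6 to 242 cpm in CD45lo libraries. That of 7 monocyte markers was 326 to 856 and 42.3 to 141 cpm, and that of 7 neutrophil markers 1359 to 3452 and 577 to 855 cpm. The neutrophil sum in CD45lo cells was mostly *Csf3r*, named after its values were seen. Its CD45lo means were 551 cpm on CD and 684 cpm on WD, and its CD45hi means 730 and 649 cpm. The part of these cells in the *Tgfbi* difference was not tested.

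To compare levels between genes, TPM was used, which divides by transcript length. *Tgfbr1* had the highest TPM of the 10 members in all 4 groups, with means of 1008 ± 157 in CD CD45lo, 933 ± 88.3 in WD CD45lo (SD, n = 4 each), 351 ± 54.2 in CD CD45hi (SD, n = 4) and 360.3 ± 46.2 in WD CD45hi cells (SD, n = 3). In CD45lo cells the order then ran *Tgfbr2* (254 and 242 TPM in CD- and WD-fed mice), *Skil* (218 and 227), *Ski* (166 and 165), *Tgfb1* (117 and 120), *Smad3* (103 and 113) and *Smad2* (89.0 and 75.1), with *Smad4*, *Smad7* and *Tgfbi* between 32.3 and 41.2. *Tgfbr2* and *Skil* overlapped there, as did *Tgfb1* and *Smad3*, and *Smad3* and *Smad2* in CD-fed mice, and so did the 3 lowest genes with each other. In CD45hi cells of CD-fed mice *Tgfbi*, at 147 ± 39.9 TPM (SD, n = 4), overlapped with *Tgfbr2* (150.4) and *Skil* (144). *Smad7* had the lowest mean there on both diets, overlapping with *Smad4* in CD-fed and below it in all WD-fed libraries, at 15.03 ± 2.58 (SD, n = 4) and 12.4 ± 1.23 TPM (SD, n = 3).

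The second question was whether the WD changed the members within a gate. No member passed the test in CD45lo cells, with log2 fold changes of WD over CD from -0.24 (*Tgfbi*) to 0.19 (*Smad7*) and overlap between the diets for all 10. In CD45hi cells the largest differences were those of *Smad4* (1.08) and *Smad2* (0.93), and the other 8 lay between -0.30 (*Ski*) and 0.37 (*Tgfb1*). The libraries of the diets overlapped for all 10 members in CD45hi cells as well.

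In CD45hi cells 0 of 10 members passed the test (edgeR glmQLFTest, FDR from 0.138 to 0.846), against 0.254% of all genes, and *Smad2* and *Smad4* were the 2 with an unadjusted p under 0.05, as 2628 of all 14967 genes had. DESeq2 called 1 member, *Smad4*, and 1030 of all genes, and limma-voom called 0 members. In CD45lo cells 0 of 10 members and 0% of all genes were called (edgeR glmQLFTest, FDR = 1 for each member), 0 members and 123 genes had an unadjusted p under 0.05, and DESeq2 and limma-voom called 0 members. The interaction of diet and gate was called for 0 members and 0.00668% of all genes (edgeR glmQLFTest), with *Smad4* the 1 member at an unadjusted p under 0.05, as 1515 of all 14967 genes were, and DESeq2 and limma-voom called 0 members.

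*Smad4* rested on 18.3 to 25.0 cpm in the 4 CD and on 24.6, 45.9 and 72.3 cpm in the 3 WD CD45hi libraries, means of 22.5 ± 2.91 and 47.6 ± 23.9 cpm (SD, n = 4 and 3). Its log2 fold change of 1.08 (SE 0.345) had an edgeR FDR of 0.138, and 0.0233 with DESeq2. *Smad2*, at 58.3 ± 21.2 in CD and 111 ± 74.4 cpm in WD CD45hi cells (SD, n = 4 and 3), had a log2 fold change of 0.93 (SE 0.376, edgeR FDR = 0.216). For both genes WD CD45hi replicate 1, which stood apart, was the lowest of its group and close to the CD libraries (37.9 cpm against 41.4 to 89.1 for *Smad2*, and 24.6 against 18.3 to 25.0 for *Smad4*). Without it, *Smad2* had a log2 fold change of 1.34 and passed (edgeR FDR = 0.0471). Without it and CD CD45hi replicate 4, both passed (*Smad2* 1.26, edgeR FDR = 0.0483, and *Smad4* 1.31, edgeR FDR = 0.0455). Leaving out WD CD45hi replicate 3 moved *Smad2* to 0.33, and leaving out replicate 2 moved *Smad4* to 0.65, with no call for either. The calls thus depend on single libraries. Beside them, the summed level of 10 markers of neurons, astrocytes, oligodendrocytes and vessels was 163 to 248 cpm in WD CD45hi and 99.3 to 147 cpm in CD CD45hi libraries, and its part in the difference was not tested.

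**Figure D4:**
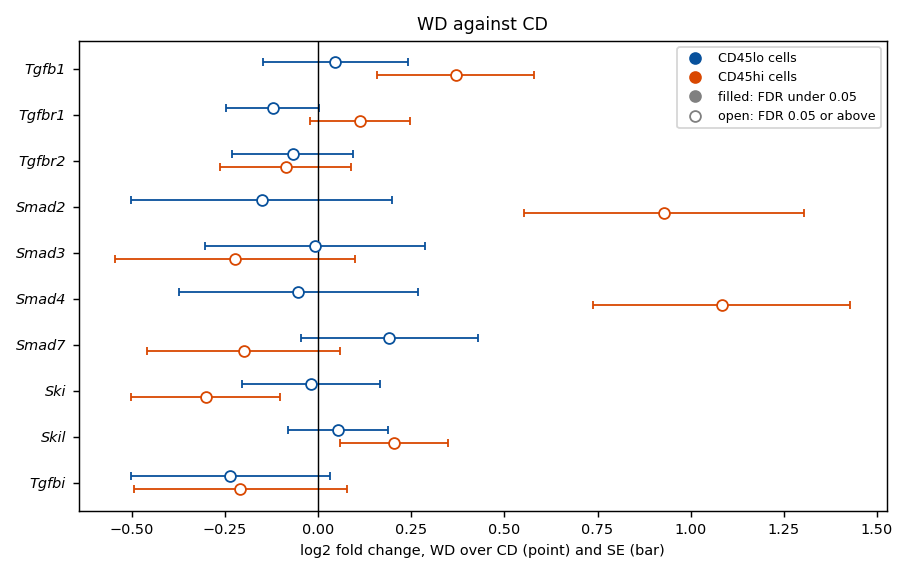
Fitted log2 fold change of WD over CD (x axis) with its SE (bar) for each member in CD45lo (blue) and CD45hi cells (orange). All points are open, since no member passed an FDR of 0.05, and *Smad4* (1.08) and *Smad2* (0.93) in CD45hi cells lie farthest from 0.

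The other genes of the pathway were taken from 7 lists by role, of which 104 genes passed the filter on low counts. On CD, 12 of them were higher and 17 lower in CD45hi than in CD45lo cells, and on WD 13 were higher and 19 lower (edgeR glmQLFTest, FDR under 0.05). Over all 14967 genes, the same test called 891 higher and 311 lower on CD (8.03% in all), and 931 and 434 on WD (9.12%). Of the pathway genes called lower, 13 and 15 were from the list of microglial genes. Of 21 genes whose level in microglia depends on TGF-beta, 11 in CD-fed and 9 in WD-fed mice were lower beyond 1.5-fold and none was higher (edgeR glmTreat), with a median log2 fold change of -0.95 and -0.92 against 0.04 and 0 over all genes. Lowest by the mean of both diets were *P2ry12*, a purinergic receptor (-1.58 and -1.66), *Slc2a5*, a fructose transporter (-1.59 and -1.65), and *Tmem119*, a microglial surface protein (-1.19 and -1.54). This list shares 8 genes with the microglial markers, so the lists are not independent.

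A further list held 16 genes that TGF-beta induces or represses in many cells. Of the 12 tested, 1 of them (*Itgae*) also a dendritic cell marker, 4 were higher in CD45hi cells beyond 1.5-fold on each diet and none was lower (edgeR glmTreat). Most calls over all genes were also higher in CD45hi cells by that test, 507 against 88 lower on CD and 600 against 175 on WD. *Bhlhe40*, a transcriptional repressor, was at 70.2 ± 53.6 against 1.98 ± 0.771 cpm on CD (SD, n = 4 each), with log2 fold changes of 5.15 on CD and 4.90 on WD. *Cdkn1a*, a cell cycle inhibitor, had log2 fold changes of 2.63 and 1.68, and *Klf10*, an early TGF-beta response gene, 1.93 and 2.07. The fourth was *Fn1* in CD-fed mice (2.72) and *Id2* in WD-fed mice (1.72), both named after their values were seen.

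Of the genes that hold TGF-beta latent or activate it, 16 of 18 were tested. *Mmp9*, a matrix metalloproteinase of neutrophils among other cells, was higher in CD45hi cells with log2 fold changes of 5.13 and 4.43 on CD and WD. *Thbs1*, which encodes the activator thrombospondin, was also higher (3.39 and 2.33). In WD-fed mice the integrin subunit gene *Itgb3*, named after its values were seen, was lower (-1.47, edgeR glmTreat FDR = 0.0183), at 43.5 to 68.2 cpm in CD45hi against 120.1 to 175 cpm in CD45lo libraries.

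Among 20 adaptors and turnover regulators, *Dab2*, an endocytic adaptor that binds the receptors and Smads, was the gene with the largest difference. On CD it had 917 ± 308 against 65.2 ± 23.1 cpm (SD, n = 4 each) and differed by 3.82 in log2. On WD it had 692 ± 301 (SD, n = 3) against 57.8 ± 12.9 cpm (SD, n = 4) and differed by 3.58. *Wwp1*, a ubiquitin ligase that acts on Smads and their receptors, was 2.56-fold and 2.64-fold higher. No other regulator passed beyond 1.5-fold on either diet. Of 16 other Smads and cofactors tested, *Runx3*, a transcription factor that binds Smads, was the 1 called beyond 1.5-fold, at 12.2 to 29.8 cpm in CD CD45hi against at most 0.986 cpm in CD CD45lo libraries, and 7.62 to 38.4 against at most 0.371 cpm in WD-fed mice. *Runx3* thus passed the filter on low counts through CD45hi libraries.

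Of 12 other receptors and co-receptors tested, 0 passed beyond 1.5-fold (edgeR glmTreat). By the test for any change 1 was called in CD-fed mice, the BMP receptor gene *Bmpr1a* (-1.09), and 1 in WD-fed mice, the co-receptor gene *Nrp1* (0.81), both named after their values were seen. Of 13 other ligands and related genes 7 were tested and 1 was called, in CD-fed mice. This was *Bmp1*, which encodes a metalloprotease and was named after its values were seen, at no more than 0.176 cpm in CD CD45hi and 0.861 to 6.18 cpm in CD CD45lo libraries. Between the diets, 0 of the 104 genes were called in either gate (edgeR glmQLFTest), where 14 had an unadjusted p under 0.05 in CD45hi and 0 in CD45lo cells, against 2628 and 123 of all 14967 genes.

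**Figure D5:**
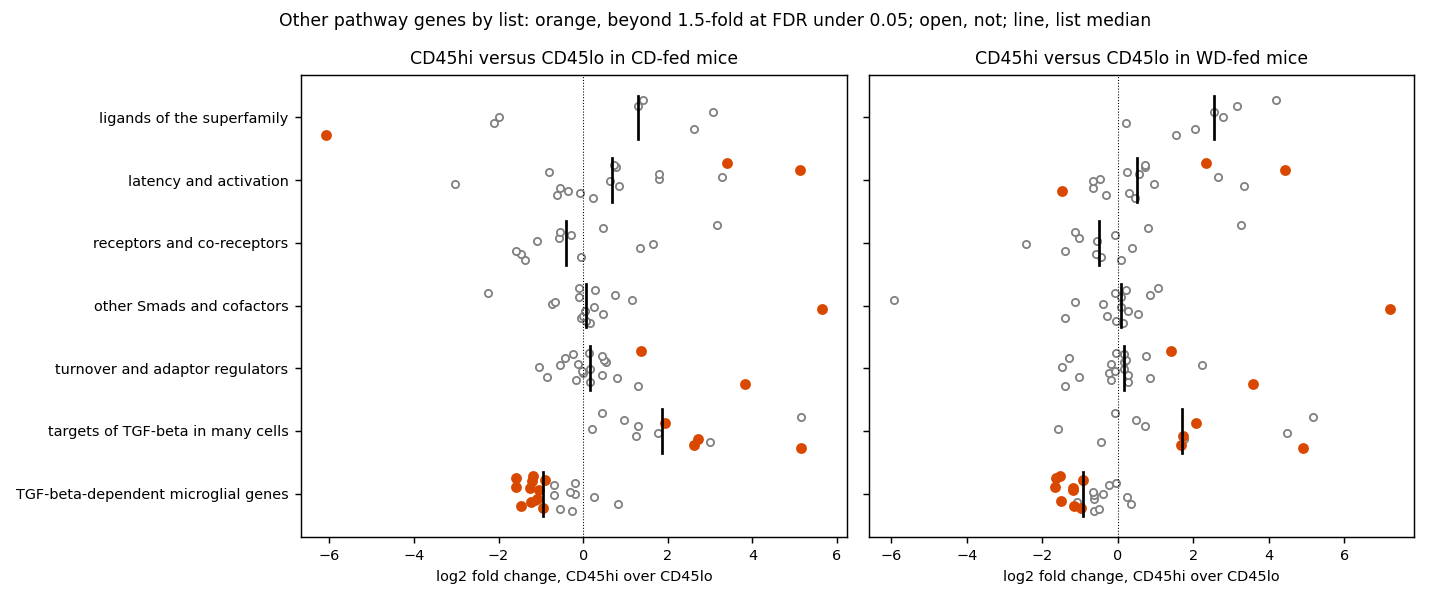
Fitted log2 fold change of CD45hi over CD45lo cells (x axes) for the tested genes of 7 lists (y axis) in CD-fed (left) and WD-fed mice (right), orange where the difference passed the test beyond 1.5-fold at an FDR under 0.05, with the list median as a line. The microglial list has 11 and 9 genes called, all lower in CD45hi cells, and the list of targets in many cells has 4 on each diet, all higher.

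For each member, the 2 genes with the most similar pattern over the 15 libraries were found among 8253 genes with a mean of at least 10 cpm, as the smallest root mean square difference of log2 cpm after each gene was centred on its mean. *Tgfbr1* was nearest to *Cx3cr1*, the fractalkine receptor gene of microglia (0.163), and *Lgmn*, a lysosomal protease gene (0.165). *Ski* was nearest to *Trem2*, a microglial lipid receptor gene (0.133), and *Basp1* (0.156), and *Tgfbr2* to *Rac1* (0.135) and *Hexa* (0.154). *Tgfbi* was nearest to *Pirb*, an inhibitory receptor gene (0.318), and *Fgl2* (0.336), *Smad7* to *Slc7a8* (0.2) and *1700017B05Rik* (0.218), and *Tgfb1* to *Cat* (0.156) and *Tpm3* (0.182). *Skil* was nearest to *Snx5* (0.131) and *Jmjd1c* (0.139). The nearest genes of the other Smads were *Rgl1* (0.28) and *Ipo9* (0.299) for *Smad2*, *Sbf2* (0.234) and *Inip* (0.26) for *Smad3*, and *Zfp148* (0.282) and *Rbbp6* (0.291) for *Smad4*.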

How the data were processed

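Poly(A)-selected RNA of sorted brain myeloid cells was sequenced in 15 libraries. The authors trimmed the reads and quantified them with RSEM 1.2.12 on mm10, and deposited per gene an expected count, which is an estimated count that is not normalized, a TPM value, which is scaled to the whole library, and an expected length in bases. Base calls used bcl2fastq 2.18.0.12, per the labels. The release of the gene annotation is not given in the sources used here, nor is the sequencer of each library, so an effect of it was not tested.

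Expected counts were rounded, the 14967 of 38924 genes that reached 1 cpm in 2 or more libraries were analysed, and TMM normalization was applied. All 15 libraries entered 1 fit of 4 groups (edgeR 4.0.16, earlier form of the quasi-likelihood method, R 4.3.3). CD45hi and CD45lo cells of the same diet were compared by glmTreat (1.5-fold) and by glmQLFTest, and diets within each gate and the interaction with glmQLFTest. FDR is Benjamini-Hochberg adjusted over all 14967 genes, and 0.05 was the limit. Each SE was derived from the fit as the absolute log2 fold change over √F. Of 21 replicate pairs 0 had identical counts, and the chi-square per degree of freedom of a pair was 21.3 to 139. The 3-count floor covers counting error only. The fit was tested on simulated data.

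The members, gene lists and tests were chosen with earlier results of these data known. Named genes are all members, the pathway genes past 1.5-fold on both diets (at most the 3 highest and 3 lowest of a list by the mean of both log2 fold changes), the 2 genes nearest to each member, and *Ptprc* and *Itgam*. Other names are marked as chosen after their values were seen. Coordinates are those of GENCODE M21. Promoters are from RefSeq on GRCm38.p6, cut where the GENCODE gene starts, and members on chromosome 18 were not searched. Replicate numbers in the sample titles and in the file names were checked for pairing by correlating deviations from group means.

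Alternatives were DESeq2 1.42.0, limma-voom (limma 3.58.1), DESeq2 size factors, other filters on low counts, the edgeR 4 form of the fit, the compared libraries alone, replicate blocks, and leaving out each library. Leaving out both CD45hi libraries that stood apart was added after seeing the data.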

Additional observations from a re-analysis of the deposited data

Results flagged for a closer look

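*Ski* in WD CD45lo cells had 1 library set apart. Replicate 2 was at 322 cpm and the other 3 libraries at 399 to 414 cpm. Its gap to the nearest of them, divided by the range of the group, was 0.84, above Dixon's critical value at the 95% level. The 30 combinations of member and group with 4 libraries were examined in this way, and chance sets about 1 in 20 of such sets apart. The *Ski* call in WD-fed mice did not rest on this library, as it passed without it.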

How the results depend on the processing

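Over all alternatives, 1238 of 1260 values for single members kept their side of the threshold and 0 changed direction against a called value. With DESeq2, 1 member was called between the diets in CD45hi cells (*Smad4*), and without both CD45hi libraries that stood apart 2 were (*Smad2* and *Smad4*). With 1 library left out that count ran from 0 to 1, and the count beyond 1.5-fold between the gates in WD-fed mice from 1 to 3, the 3 being *Tgfbr1*, *Smad3* and *Tgfbi* without WD CD45hi replicate 2. The count for any change there ran from 3 to 6, with 6 without the same library. The cause was not tested. *Ski* in WD-fed mice lost its call in 8 of 17 alternatives, among them DESeq2 size factors (FDR = 0.0557) and the compared libraries alone (FDR = 0.0557). *Tgfbi* on both diets and *Tgfbr1* for any change kept their calls throughout. The numbers in the file names are shared by CD45hi and CD45lo libraries, except that of WD CD45lo replicate 1. The labels do not say what these numbers stand for. Deviations of libraries with the same title or file number had correlations from -0.0217 to 0.0695. Such correlations cannot show whether 2 libraries came from the same animal, so pairing was not settled. With the file numbers as a replicate block, 2 members were called for any change between the gates in WD-fed mice instead of 4 (*Tgfbr1* and *Tgfbi*, with *Smad7* at FDR = 0.0822 and *Ski* at 0.141), and with the title numbers 4 were, with *Smad3* (FDR = 0.0396) in place of *Ski* (FDR = 0.0819). The replicate blocks changed no other count of members called. The number of all genes called ran from 353 to 1036 beyond 1.5-fold in WD-fed mice (775 as reported), from 770 to 1867 for any change in CD-fed (1202) and from 637 to 2358 in WD-fed mice (1365), from 0 to 1030 between the diets in CD45hi cells (38), from 0 to 4 in CD45lo cells (0) and from 0 to 188 for the interaction (1). With 3 or 4 libraries a group, the SE of *Smad2* and *Smad4* was 0.321 to 0.376 between gates or diets. For the interaction it was 0.514 and 0.472. This limits what can be called for them.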

Other observations

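Scaling the members to the summed level of the 10 microglial markers, chosen after the values were seen, gave the following values. For every 1000 cpm of these markers, *Tgfbr1* and all 4 Smads overlapped between the gates on both diets. For *Tgfbr1*, *Smad2* and *Smad4* in WD-fed mice, the overlap rests on WD CD45hi replicate 1, which stood apart. The other WD CD45hi libraries were above every WD CD45lo library for these genes. The overlap of *Smad4* in CD-fed mice rests in the same way on CD CD45hi replicate 4. *Smad2* was at 4.22 to 11.3 cpm in CD CD45hi and 3.47 to 5.02 cpm in CD CD45lo libraries, and at 3.99 to 21.1 and 3.63 to 5.08 cpm in WD-fed mice. *Smad4* was at 2.0 to 2.99 and 1.59 to 2.14 cpm in CD-fed mice and at 2.58 to 8.06 and 1.35 to 2.73 cpm in WD-fed mice. *Smad7* was at 3.97 to 6.09 cpm in CD CD45hi and 2.75 to 5.06 cpm in CD CD45lo libraries, and at 3.73 to 4.85 and 3.26 to 6.53 cpm in WD-fed mice. *Smad3* was at 4.82 to 15.3 and 6.01 to 7.57 cpm in CD-fed mice and at 4.69 to 13.7 and 6.81 to 8.09 cpm in WD-fed mice.

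The marker sum was 7872 to 9798 cpm in CD45hi and 16790 to 21140 cpm in CD45lo libraries. A gene at equal cpm in both gates therefore comes out higher in CD45hi cells when divided by it. By this measure *Tgfbr2*, *Skil*, *Tgfb1* and *Tgfbi* were higher in every CD45hi than in every CD45lo library on both diets. *Tgfbr2* was at 56.6 to 57.5 against 27.3 to 32.4 cpm in CD-fed mice and 38.6 to 73.0 against 27.8 to 35.6 cpm in WD-fed mice. *Skil* was at 48.5 to 86.6 against 30.3 to 33.8 cpm and 65.6 to 81.1 against 32.4 to 37.8 cpm. *Tgfb1* was at 12.2 cpm or more against 5.05 to 6.69 cpm and 17.1 to 21.5 against 4.87 to 7.84 cpm. *Ski* did not overlap in CD-fed mice (27.5 to 42.1 against 15.6 to 21.5 cpm) and overlapped in WD-fed mice (19.6 to 29.1 against 16.2 to 23.8 cpm). In cpm without this scaling, *Tgfbr2* had log2 fold changes of -0.29 and -0.31 (CD and WD) and *Skil* -0.22 and -0.07. Those of *Tgfb1* were 0.17 and 0.49, and those of *Tgfbi* 2.33 and 2.35. Only *Tgfbi* of these genes was called. The share of all genes that separate by the ratio was not computed. The ratio is a description of these libraries with no test, and the marker sum is not a measure of the share of microglia.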
